A study of Rattus norvegicus with 12 samples.

Results

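The genes followed here carry fatty acids into the heart muscle cell, store them as droplets or switch mitochondria towards burning them, and they were measured in rat hearts recovering from a coronary occlusion. The 8 genes were Angptl4, Lpl, Cd36, Fabp4, Plin2, Pdk4, Ucp2 and Ucp3, most of which are known targets of the peroxisome proliferator-activated receptors (PPARs). They are 8 of the 10412 genes named on the array. All probe sets whose single gene symbol in the array annotation was one of these were taken, which gave 9 of the 15923 probe sets: 2 for Plin2 and 1 for each of the other 7 genes. A further probe set annotated with both Cd36l1 and Cd36 carries more than 1 symbol and was left out. The set was chosen by the signals of Angptl4 and Plin2, which differed between the days in reperfused hearts, so the values of these 2 genes in the reperfused hearts are given as a description with no test. Sham values entered that choice too, so these 2 genes have no test between the sham groups either. The other 6 genes were tested in every comparison.

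Ventricles of 12 rats were measured, each on an array of its own, in 4 groups of 3. IR stands for ischaemia and reperfusion: rats had their left anterior descending artery blocked for 30 min, blood flow was then let back in, and tissue was collected 7 d or 2 d later. Sham hearts of the same days had no occlusion. The labels give rat heart as the source and total RNA labelled with biotin as the material, and they name no strain, sex, age or part of the ventricle. The groups were 7 d IR, 7 d sham, 2 d IR and 2 d sham, taken from the sample titles, since the written design lists a 7 d sham group where the 2 d sham group would be.

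The adult heart burns mainly fatty acids. Lipoprotein lipase at the capillary wall frees them from circulating triglyceride, CD36 and binding proteins bring them in, and what is not burnt at once is held in droplets coated by perilipins. Fatty acids themselves activate PPARs, nuclear receptors that sit on DNA with a retinoid X receptor and raise the genes for uptake, storage and oxidation. Among these genes are Angptl4, which inhibits lipoprotein lipase, and Pdk4, which switches off pyruvate dehydrogenase. Angptl4 and Plin2 are also known to respond to low oxygen, and Plin2 is abundant in lipid-laden macrophages.

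The promoters of Angptl4 and Plin2 are printed because these 2 genes gave rise to the set, and those of Ucp3 and Ucp2 because these neighbours on chromosome 1, with 0 protein-coding genes between them, had changes of opposite sign between the sham groups. Sequences are from RefSeq on assembly GRCr8, 250 bases before to 50 bases after a gene's start, and 6 of the 8 genes had an entry. Angptl4 lies at chr7:15258632-15258931 on the minus strand, Plin2 has 2 starts at chr5:106228969-106229268 (called a here) and chr5:106228488-106228787 (called b), both on the minus strand, and Ucp3 and Ucp2 lie at chr1:164227660-164227959 and chr1:164251123-164251422 on the plus strand. Capitals mark matches, on either strand, to the nuclear receptor half-site AGGTCA, the hypoxia element core ACGTG and the TATA box TATAAA.
Angptl4: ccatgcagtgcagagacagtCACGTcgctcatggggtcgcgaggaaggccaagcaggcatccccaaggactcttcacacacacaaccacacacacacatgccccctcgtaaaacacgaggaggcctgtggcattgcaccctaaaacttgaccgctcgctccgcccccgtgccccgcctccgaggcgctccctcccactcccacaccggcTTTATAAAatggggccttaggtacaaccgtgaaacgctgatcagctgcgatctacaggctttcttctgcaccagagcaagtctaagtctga
Plin2 a: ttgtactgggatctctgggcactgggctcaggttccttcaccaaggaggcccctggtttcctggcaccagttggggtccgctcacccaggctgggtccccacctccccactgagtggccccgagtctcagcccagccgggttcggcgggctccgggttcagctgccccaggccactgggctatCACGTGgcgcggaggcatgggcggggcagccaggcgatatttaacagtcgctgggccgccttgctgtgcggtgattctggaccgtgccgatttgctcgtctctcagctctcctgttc
Plin2 b: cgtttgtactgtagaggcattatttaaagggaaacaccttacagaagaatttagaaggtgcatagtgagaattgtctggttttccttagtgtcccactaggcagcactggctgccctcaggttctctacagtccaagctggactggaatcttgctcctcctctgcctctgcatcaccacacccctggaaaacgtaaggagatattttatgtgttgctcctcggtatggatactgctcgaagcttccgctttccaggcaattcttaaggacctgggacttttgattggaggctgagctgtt
Ucp3: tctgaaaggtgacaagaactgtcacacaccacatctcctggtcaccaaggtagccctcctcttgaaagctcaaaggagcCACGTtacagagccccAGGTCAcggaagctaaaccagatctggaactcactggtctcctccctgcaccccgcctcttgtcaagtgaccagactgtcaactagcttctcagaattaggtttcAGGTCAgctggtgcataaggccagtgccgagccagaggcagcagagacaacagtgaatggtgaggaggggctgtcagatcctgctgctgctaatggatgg
Ucp2: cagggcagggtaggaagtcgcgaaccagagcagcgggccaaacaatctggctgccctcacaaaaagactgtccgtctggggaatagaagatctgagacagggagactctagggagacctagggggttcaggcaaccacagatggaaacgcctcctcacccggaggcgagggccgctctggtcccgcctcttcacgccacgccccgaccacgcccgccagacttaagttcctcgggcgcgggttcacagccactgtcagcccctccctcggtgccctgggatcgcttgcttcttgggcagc

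The Angptl4 promoter held TATAAA 39 bases before the start, with an overlapping match on the other strand at 41, and ACGTG on the other strand 230 bases before it. Start a of Plin2 held a palindromic CACGTG, which gives ACGTG on both strands at 66 and 67 bases before the start, and start b held no match. Ucp3 held the half-site 155 and 50 bases before its start and ACGTG on the other strand at 171, whereas the Ucp2 window had no match. The full PPAR element, a pair of AGGTCA half-sites with any 1 base between them, was in none of the windows of these genes. Of all 33469 rat promoters in the table, 16.2% held AGGTCA, 19.3% ACGTG, 14.2% TATAAA and 0.0538% the full element. A match of this length is a description of the letters and not of a bound site.

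The arrays had been scaled by the authors to a common level, with trimmed means of 1500.4 to 1500.5 and medians of 637.3 to 719.0 signal units, and 10527 probe sets were bright enough to be tested, all 9 of these genes' probe sets among them. Not all arrays resembled the others of their group. The first principal component held 39.0% of the variance, and there 7 d sham replicate 82 scored -23.6, whereas both other 7 d sham arrays scored -1.1, and 2 d IR replicate 69 scored 18.3, whereas replicates 73 and 76 scored -4.1 and 0.2. Counts that rest on these arrays are given with and without them.

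Angptl4, the secreted inhibitor of lipoprotein lipase, was high in all 2 d IR hearts, low in all 2 d sham hearts and scattered at 7 d. Its signal was 2641.3, 2713.5 and 2436.9 in the 2 d IR hearts, against 504.3, 513.1 and 821.6 in the 2 d sham hearts. The lowest 2 d IR heart thus lay well above the highest 2 d sham heart. This was a log2 change of 1.81 (SE 0.38), a 3.51-fold difference on the log2(signal + pseudocount) scale, where a constant of 195.45 signal units is added before the logarithm and understates changes of dim genes. The ratio of the mean signals was 4.24.

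At 7 d Angptl4 had 2813.5, 988.0 and 1006.5 signal units in the IR hearts, against 2427.1, 1537.0 and 606.2 in the sham hearts. Both groups spanned almost the same range. IR replicate 44 lay above all 2 d IR hearts, sham replicate 80 just below the lowest of them, and the remaining 4 arrays lower. The log2 change was 0.08 (SE 0.38), and its sign rested on single arrays: it was -0.37 without IR replicate 44 and -0.39 without sham replicate 82. The IR effect at 7 d was lower than that at 2 d by 1.73 on the log2 scale (SE 0.53), of which the sham hearts supplied the larger share. Their mean of 1523.4 ± 910.5 at 7 d lay above 613.0 ± 180.7 at 2 d (SD, n = 3 each). That sham difference had a log2 change of 0.95 (SE 0.38), and the ranges of the sham groups overlapped. With the sham hearts of the other day as the control, the 2 d IR change was 0.86 and the 7 d IR change 1.03.

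**Figure D1:**
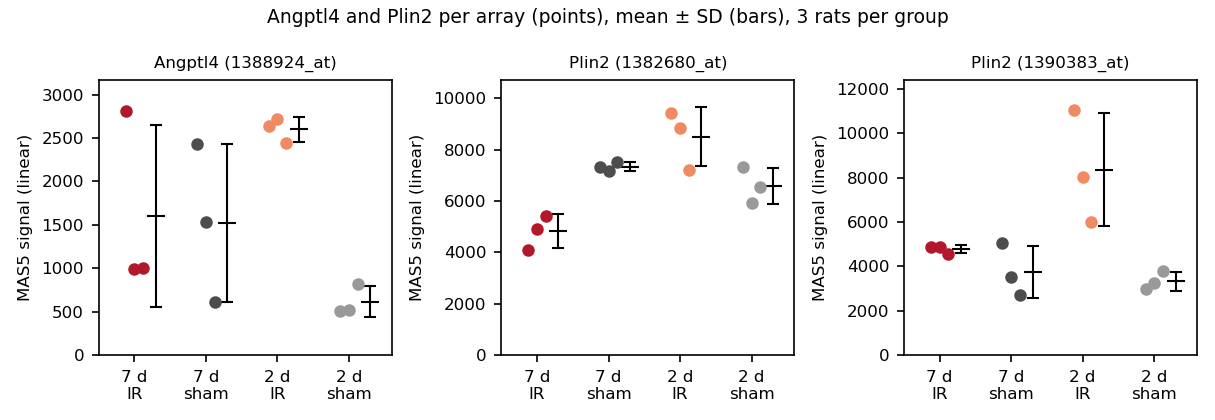
Signal of Angptl4 and of both Plin2 probe sets per array (points, linear MAS5 signal), with the mean and SD of each group of 3 rats (bars). The 3 Angptl4 points of the 2 d IR hearts lie between 2436.9 and 2713.5 and those of the 2 d sham hearts between 504.3 and 821.6, while the 7 d groups share their range.

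Lpl encodes lipoprotein lipase, the enzyme that Angptl4 inhibits, and it was lower in reperfused than in sham hearts on both days. At 7 d its signal was 23685.6, 21930.6 and 25305.3 in the IR hearts, against 33096.6, 35986.5 and 39128.7 in the sham hearts. Every IR array lay below every sham array, as was so for 15.8% of all probe sets tested. Lpl fell by 0.60 on the log2 scale (SE 0.11, adjusted p = 0.00805), to 0.658 of the sham level. It passed in each of the 23 alternative settings tried, with adjusted p-values of 0.000348 to 0.0426.

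At 2 d Lpl had 29405.0, 31845.2 and 29997.5 signal units in the IR hearts, against 39442.2, 48357.2 and 36573.1 in the sham hearts. The groups again did not overlap, as for 12.5% of all probe sets in this direction. The log2 change was -0.44 (SE 0.11) and just missed the threshold (adjusted p = 0.0516), and it passed in 5 of 23 alternatives, among them that without 2 d IR replicate 73 (adjusted p = 0.0484) and that with 7 d sham replicate 82 left out (adjusted p = 0.0385). The IR effects of the days were not shown to differ (-0.17, 95% interval -0.50 to 0.17, adjusted p = 0.882). In the order of levels, 2 d sham (41457.5 ± 6145.1) and 7 d sham (36070.6 ± 3016.9) overlapped, and 2 d IR (30415.9 ± 1272.8) and 7 d IR (23640.5 ± 1687.8, SD, n = 3 each) each lay below the next higher group without overlap. The 7 d IR hearts were below the 2 d IR hearts by -0.36 on the log2 scale (SE 0.11), which did not pass (adjusted p = 0.0934).

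Cd36, the fatty acid translocase of the muscle cell and capillary membrane, showed no difference that passed. Its signal was 13297.4, 17631.0 and 13650.0 in the 7 d IR hearts, against 18529.2, 15896.7 and 17721.2 in the 7 d sham hearts. The IR hearts reached lower, but replicate 47 lay inside the sham range, with a log2 change of -0.23 (95% interval -0.54 to 0.08, adjusted p = 0.322). At 2 d it had 14040.4, 20703.0 and 17204.9 signal units in the IR hearts, against 21519.8, 18147.7 and 18024.6 in the sham hearts. The groups overlapped through IR replicate 73, and the change was -0.16 (95% interval -0.47 to 0.15, adjusted p = 0.568). The 4 group means, 19230.7 in 2 d sham, 17382.4 in 7 d sham, 17316.1 in 2 d IR and 14859.5 in 7 d IR, followed each other with overlapping ranges throughout.

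Fabp4 encodes a fatty acid carrier of adipocytes, macrophages and the capillary endothelium of the heart. It had 13186.3, 14909.8 and 14185.0 signal units in the 7 d IR hearts, against 13602.9, 16803.4 and 21569.2 in the 7 d sham hearts. Sham replicate 80 lay among the IR arrays, and sham replicate 82, the array that stood apart from the other 7 d sham arrays, was the highest of all 12. Fabp4 had a log2 change of -0.27 (95% interval -0.59 to 0.05, adjusted p = 0.253) and -0.10 at its smallest over the alternatives. At 2 d the signals were 14782.5, 19970.9 and 17901.5 in the IR hearts, against 18281.7, 16594.3 and 17835.2 in the sham hearts. The sham values lay within the IR range, and the change was -0.01 (95% interval -0.33 to 0.31, adjusted p = 0.98).

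Plin2, the perilipin that coats lipid droplets in most cells outside fat, was read by 2 probe sets that ran together at 2 d and apart at 7 d. The first, 1390383_at, had 11061.7, 8008.3 and 5994.6 signal units in the 2 d IR hearts, against 2963.6, 3226.9 and 3792.4 in the 2 d sham hearts. All 2 d IR arrays lay above all 2 d sham arrays, with replicate 69 at the top. They differed by 1.24 on the log2 scale (SE 0.21), a 2.37-fold difference, and it was 1.02 to 1.45 over the alternatives. At 7 d this probe set had 4892.0, 4868.0 and 4556.4 signal units in the IR hearts, against 5031.1, 3520.1 and 2692.4 in the sham hearts. The 7 d IR arrays agreed closely with each other and lay inside the sham range, since sham replicate 80 was the highest of the 6 (log2 change 0.38, SE 0.21).

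The second Plin2 probe set, 1382680_at, had 9433.6, 8836.7 and 7222.3 signal units in the 2 d IR hearts, against 7309.9, 5919.6 and 6529.8 in the 2 d sham hearts. IR replicate 76 lay just under sham replicate 71, so the groups touched, and the log2 change was 0.35 (SE 0.13). At 7 d the signals were 4107.6, 4920.9 and 5421.0 in the IR hearts, against 7330.9, 7157.7 and 7506.1 in the sham hearts. All 7 d IR arrays were below all 7 d sham arrays, by 0.60 on the log2 scale (-0.60, SE 0.13). The probe sets therefore had opposite signs at 7 d, and which transcripts or transcript ends each of them reads is not given in the sources used here. Both put the 7 d IR hearts below the 2 d IR hearts without overlap, as 9.91% of all probe sets tested did. The log2 changes were -0.74 (SE 0.21) for 1390383_at and -0.79 (SE 0.13) for 1382680_at. They are read no further, because the gene was chosen for its values in these hearts. The 7 d minus 2 d difference of the IR effects was -0.87 (SE 0.30) and -0.95 (SE 0.19) for the same 2 probe sets.

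Between the 7 d and 2 d sham hearts the log2 changes were 0.13 (SE 0.21) for 1390383_at and 0.16 (SE 0.13) for 1382680_at, and the sham groups overlapped for both. The groups of 1390383_at ran from 2 d IR (8354.9 ± 2551.3) through 7 d IR (4772.1 ± 187.2) and 7 d sham (3747.9 ± 1185.9) to 2 d sham (3327.6 ± 423.5), and only the step below 2 d IR had no overlap. Those of 1382680_at ran from 2 d IR (8497.5 ± 1144.0) through 7 d sham (7331.6 ± 174.2) and 2 d sham (6586.4 ± 696.9) to 7 d IR (4816.5 ± 662.9, SD, n = 3 each), and only the step above 7 d IR had no overlap.

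Pdk4, the kinase that switches off pyruvate dehydrogenase and a PPAR target in heart and muscle, showed no difference that passed and was marked by single rats. It had 1324.3, 1586.6 and 1471.8 signal units in the 7 d IR hearts, against 3015.0, 1840.8 and 1551.0 in the 7 d sham hearts. The 7 d IR arrays were close together, and sham replicate 82 lay among them, with a log2 change of -0.45 (95% interval -1.12 to 0.23, adjusted p = 0.386). At 2 d the signals were 1626.5, 4592.5 and 1720.4 in the IR hearts, against 2475.6, 1424.1 and 1687.3 in the sham hearts. IR replicate 73 stood alone, and the change of 0.35 (95% interval -0.33 to 1.02, adjusted p = 0.574) became -0.11 without it. The 7 d IR arrays lay below the 2 d IR arrays without overlap, with a change of -0.63 that did not pass (95% interval -1.30 to 0.04, adjusted p = 0.342).

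**Figure D2:**
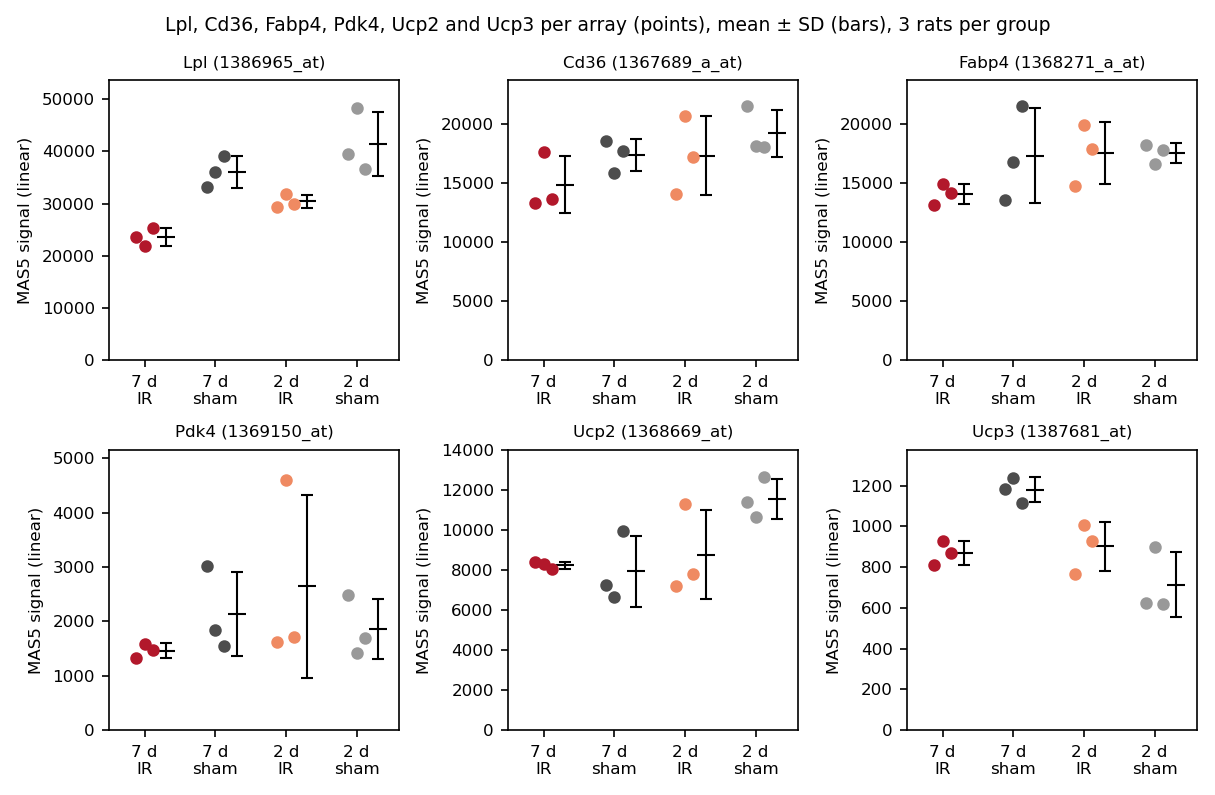
Signal of Lpl, Cd36, Fabp4, Pdk4, Ucp2 and Ucp3 per array (points, linear MAS5 signal), with the mean and SD of each group of 3 rats (bars). Lpl of the IR hearts lies below that of the sham hearts on both days, and Pdk4 of the 2 d IR hearts is spread by replicate 73 at 4592.5.

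Ucp2, a mitochondrial carrier of the uncoupling protein family found in many cell types, passed in no comparison with all 12 arrays. Its signal was 8392.8, 8288.8 and 8038.7 in the 7 d IR hearts, against 7232.1, 6636.1 and 9933.7 in the 7 d sham hearts. The IR arrays lay inside the sham range (log2 change 0.07, 95% interval -0.28 to 0.43, adjusted p = 0.813). At 2 d it had 7194.2, 11322.1 and 7800.9 signal units in the IR hearts, against 11390.5, 10673.5 and 12658.3 in the sham hearts. IR replicate 73 was at the sham level and the other 2 d IR arrays below it, with a change of -0.42 (95% interval -0.77 to -0.06) that did not pass (adjusted p = 0.167) and did so without replicate 73 (-0.61, adjusted p = 0.0431). The 7 d sham hearts lay below the 2 d sham hearts without overlap, by -0.55 (SE 0.17, unadjusted p = 0.00504, adjusted p = 0.281). This difference passed without 7 d sham replicate 82 and 2 d IR replicate 69 together (-0.72, adjusted p = 0.0384).

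Ucp3, the relative of Ucp2 that is mainly found in muscle and is raised by fatty acids through PPARs, ran the other way in the sham hearts. It had 812.4, 926.7 and 868.9 signal units in the 7 d IR hearts, against 1185.1, 1236.2 and 1114.8 in the 7 d sham hearts. All 7 d IR arrays were below all 7 d sham arrays, with a log2 change of -0.37 (SE 0.15) that did not pass (unadjusted p = 0.0244, adjusted p = 0.117). At 2 d the signals were 768.2, 1008.7 and 926.0 in the IR hearts, against 624.6, 897.9 and 618.2 in the sham hearts. Sham replicate 72 lay among the IR arrays, and the change of 0.28 did not pass (95% interval -0.04 to 0.59, adjusted p = 0.293).

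The 7 d sham hearts had more Ucp3 than the 2 d sham hearts, without overlap, by 0.61 (SE 0.15). This was the smallest unadjusted p of the 6 genes tested in that comparison (0.000895), and it did not pass over all probe sets (adjusted p = 0.174, 0.0904 to 0.475 over 22 alternatives). The IR effect on Ucp3 at 7 d minus that at 2 d was -0.65 (SE 0.21, unadjusted p = 0.00726, adjusted p = 0.542). The sign of the Ucp3 change depended on the control. Against the sham hearts of the other day the change was 0.24 for the 7 d IR hearts and -0.33 for the 2 d IR hearts. For Ucp2 the same exchange gave -0.48 at 7 d and 0.14 at 2 d. The order of the Ucp3 group means was 7 d sham (1178.7 ± 61.0), 2 d IR (901.0 ± 122.2), 7 d IR (869.3 ± 57.2) and 2 d sham (713.6 ± 159.7, SD, n = 3 each), and the 3 lower groups overlapped with their neighbours.

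**Figure D3:**
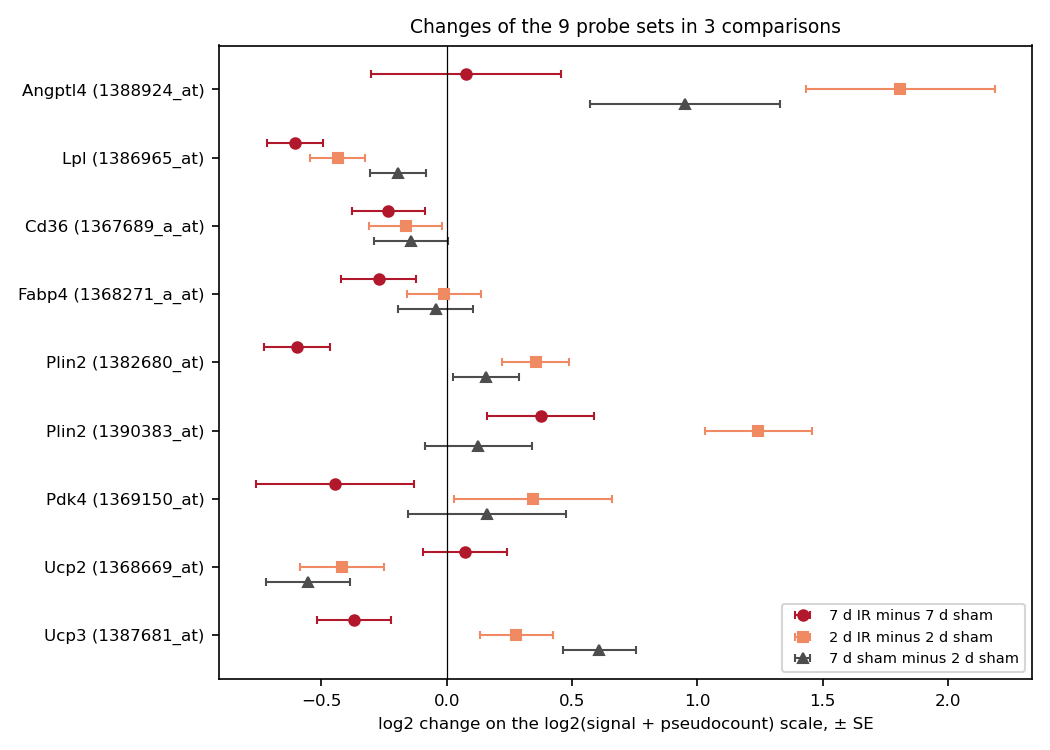
Log2 change with its SE for the 9 probe sets in 3 comparisons, on the log2(signal + pseudocount) scale. Angptl4 and both Plin2 probe sets lie above 0 at 2 d, the Plin2 probe sets lie on opposite sides of 0 at 7 d, and Ucp2 and Ucp3 lie on opposite sides of 0 between the sham groups.

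Of the 6 genes tested at 7 d, 1 (Lpl) was called lower and 0 higher, against 5.85% of all probe sets called lower and 12.1% called in either direction. At an unadjusted p under 0.05 there were 2 of the 6, against 28.0% of all probe sets. The median log2 change of the 6 was -0.32, against 0.007 for all probe sets tested, and Lpl and Ucp3 had IR arrays wholly below the sham arrays, as 15.8% of all probe sets did. At 2 d limma called 0 of the 6, against 2.47% of all probe sets, with 2 of 6 against 21.5% at an unadjusted p under 0.05, and the median was -0.09, against 0.003 for all. Angptl4 and Plin2 1390383_at were the probe sets with 2 d IR arrays wholly above the sham arrays, as 13.9% of all probe sets were, which is read no further because this contrast chose the genes. For the 7 d minus 2 d difference of the IR effects limma called 0 of 6, against 0.0095% of all probe sets, and 1 of 6 at an unadjusted p under 0.05, against 7.14% of all. For 7 d IR against 2 d IR it called 0 of 6, against 3.45% of all, and 1 of 6 unadjusted, against 16.4%, while Lpl and Pdk4 lay wholly lower, as 9.91% of all probe sets did. Between the sham groups limma called 0 of the 6, against 0.076% of all, and 2 of 6 unadjusted, against 9.42%, with 1 wholly higher and 1 wholly lower, against 7.27% and 7.07% of all.

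The 7 d and 2 d IR groups each have a sham group of their own, while the 2 sham groups also enter the difference of the effects and the sham comparison, so that these values are not independent of each other. Of the 2 d IR hearts, replicate 73 held the highest value for 7 of the 9 probe sets and the lowest for 0, and replicate 69 the lowest for 6. The arrays of the other 3 groups each held the highest value for 1 to 4 of the 9.

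Genes around these 8 were taken from lists of their pathways, with the 8 left out. The lists overlap, so a gene such as Acsl1 or Lpin1 counts in more than 1 of them. At 7 d, 5 of 16 lipid droplet genes fell and 0 rose (median log2 change -0.33), beside the 5.85% of all probe sets called lower and their median of 0.007. Among them were Pnpla2, the first lipase of droplet triglyceride (-0.72, SE 0.14, adjusted p = 0.00946), Plin4, a further droplet coat protein (-0.71, SE 0.19, adjusted p = 0.028), and Cidea, a droplet fusion protein (-0.77, SE 0.21, adjusted p = 0.0284). Plin3, the perilipin closest to Plin2 in its broad expression, had -0.18 (adjusted p = 0.354). Plin1, the perilipin of fat cells, was too dim to be tested, with 136.8 to 461.9 signal units over the 12 arrays.

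Of 23 other PPAR target genes, 13 fell at 7 d and 0 rose, beside 5.85% of all probe sets called lower. All 23 had a log2 change below 0 (median -0.55), as 49.2% of all probe sets tested did. The most changed of the 13 were enzymes of mitochondrial fatty acid oxidation: Acaa2 (-0.79, SE 0.18), Cpt2 (-0.67, SE 0.13), Hadha (-0.67, SE 0.19) and Decr1 (-0.67, SE 0.21). Among 12 genes of the lipase pathway and fatty acid uptake 2 fell and 1 rose. Those that fell were Acsl1, which activates long-chain fatty acids (-0.60, SE 0.16), and Fabp3, the binding protein of heart muscle (-0.52, SE 0.14), and the one that rose was Apoe, an apolipoprotein abundant in macrophages (1.59, SE 0.20, adjusted p = 0.00244). A second Acsl1 probe set had -0.34 (adjusted p = 0.23).

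Of the kinases and phosphatases of pyruvate dehydrogenase and its subunits, the group around Pdk4, 5 of 7 fell at 7 d and 0 rose (median -0.60). These included the phosphatases Pdp2 (-0.68, SE 0.14) and Pdp1 (-0.67, SE 0.13), which oppose Pdk4, and the kinase Pdk2 (-0.61, SE 0.15), for which a second probe set had 0.03 (adjusted p = 0.939). The kinase Pdk1 had a log2 change of -0.55 on its brighter probe set, which did not pass (adjusted p = 0.0903), and fell on the other (-0.53, SE 0.11, adjusted p = 0.0111, and 0.0591 without 7 d sham replicate 82), while the kinase Pdk3 had 0.25 (adjusted p = 0.372). Among PPARs, their partners and coactivators 3 of 11 fell: Esrra (-0.63), Rxrg (-0.56) and Lpin1 (-0.55). Pparg had -0.003 (adjusted p = 0.993) and Ppard -0.32 (adjusted p = 0.147) at 7 d, while Ppara, the main PPAR of heart muscle, read only 52.7 to 264.7 signal units on its probe set and was not tested. Of 3 relatives of the uncoupling proteins 1 fell, the adenine nucleotide carrier Slc25a4 (-0.40, SE 0.11), and Ucp1, the uncoupling protein of brown fat, was too dim to be tested.

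These 7 d counts rested on sham replicate 82, which differed from the other 7 d sham arrays and scored among the 2 d sham arrays on the first component. Without 7 d sham replicate 82 the counts of genes that fell were 0 of the lipid droplet list, 1 of the other PPAR targets, 0 of the uptake list, 1 of the pyruvate dehydrogenase list, 0 of the PPAR partners and 0 of the uncoupling relatives, and Apoe still passed. Without replicates 82 and 69 together they were 2, 9, 1, 4, 0 and 1 in the same order of lists. Leaving out 7 d IR replicate 44 gave 1, 3, 0, 3, 0 and 0, leaving out 7 d IR replicate 48 gave 3, 7, 0, 4, 0 and 0, and leaving out 7 d IR replicate 47 or 7 d sham replicate 81 lowered the droplet count to 2, the uptake count to 1 and the uncoupling count to 0. The PPAR partner count was 0 or 1 without any of these arrays, and 1 without 2 d IR replicate 76 or any of the 2 d sham replicates 71, 72 and 74. Of the 22 genes named in these and the 2 other lists at 7 d, 2 passed in every setting, Apoe and Pdp1.

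At 2 d fewer genes of these lists passed, as fewer of all probe sets did (2.47% in either direction). In the uptake list 3 of 12 genes rose and 1 fell: Fabp5, the binding protein of skin and macrophages (1.11, SE 0.17, adjusted p = 0.0132), Acsl4, which activates arachidonic acid (1.05, SE 0.26, adjusted p = 0.0468), and Apoe (0.96, SE 0.20, adjusted p = 0.0285) were higher, and Acsl1 was lower (-0.66, SE 0.16, adjusted p = 0.0484). Of the other PPAR targets 1 of 23 fell (Acsl1) and of the pyruvate dehydrogenase genes 1 of 7 (Pdp1, -0.57, SE 0.13, adjusted p = 0.0366). At 2 d Pdp1 was not called in 9 of 23 alternatives. Among these were the fits without 2 d IR replicate 69 or 76 or any of the 2 d sham arrays, and that with the other day's sham hearts. In the lipid droplet list 0 of 16 passed by limma, with 5 at an unadjusted p under 0.05. The 3 genes of the uptake list that rose were not called when 2 d IR replicate 69, 2 d sham replicate 71 or 2 d sham replicate 72 was left out, and limma then called 2 of all probe sets. Over the 23 alternatives Fabp5 was not called in 3, Apoe in 6 and Acsl4 in 13. Of the fits that leave out an array, Acsl1 passed in those that drop 2 d IR replicate 76 or 7 d sham replicate 82. Of the 7 genes named from all lists at 2 d, 0 passed in every setting. Between 7 d and 2 d IR hearts, Fabp5 fell (-1.08, SE 0.17, adjusted p = 0.00287), as did Pnpla2 (-0.91, SE 0.14, adjusted p = 0.00235), Cpt2 (-0.65, SE 0.13, adjusted p = 0.0136) and Acot2, a mitochondrial thioesterase raised by PPARs (-1.38, SE 0.33, adjusted p = 0.0312), while Apoe rose (0.98, SE 0.20, adjusted p = 0.0144). Of the 12 genes named from all lists in that comparison, 4 passed in every setting, among them Fabp5 and Pnpla2. Acot2 averaged 298.4 ± 94.4 signal units in the 7 d IR and 1215.7 ± 838.3 in the 2 d IR hearts (SD, n = 3 each). It was not called in 7 of 22 alternatives, among them those without 2 d IR replicate 73 or any of the 7 d IR arrays.

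**Figure D4:**
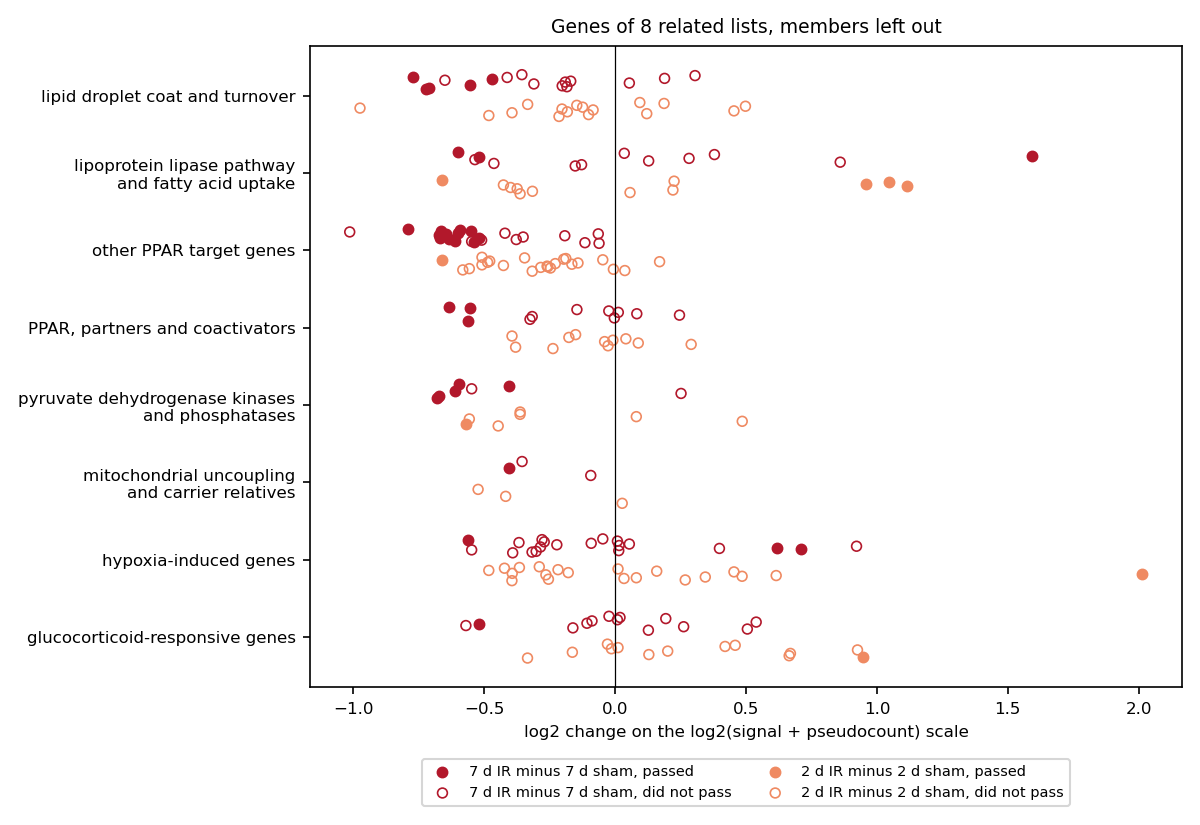
Log2 change of each gene of 8 pathway lists, with the 8 genes of the set left out, at 7 d (upper row of each list) and 2 d (lower row). Filled points passed at an adjusted p under 0.05. All 23 other PPAR targets lie below 0 at 7 d, as 49.2% of all probe sets tested did, and the uptake list has genes on both sides of 0 on both days.

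The genes whose log2 signal followed Angptl4 most closely over the 12 arrays were Acsl4 (Pearson r = 0.93), the ubiquitin ligase gene Cblb (0.92), Reep4 (0.92), Synj1 (0.91) and the chemokine gene Cxcl1 (0.90). Cxcl1 averaged 1591.8 ± 731.4 signal units in 2 d IR, against 200.5 ± 50.4 in 2 d sham hearts, and 899.4 ± 929.4 in 7 d IR, against 839.6 ± 646.5 in 7 d sham hearts (SD, n = 3 each). For the brighter Plin2 probe set, 1382680_at, they were Nfu1 (0.90), Atp1b1 (0.86), Klc1 (0.85), Zfp706 (0.85) and Cck (0.84). The other Plin2 probe set, added after its values were seen, followed Arg1 (0.97), Ddx39a (0.96), Akr1b8 (0.95), Hmox1 (0.95) and Dnajc3 (0.94), of which Arg1 encodes an arginase and Hmox1 a haem oxygenase. Hmox1 averaged 10672.4 ± 5494.1 signal units in the 2 d IR and 2297.3 ± 129.2 in the 2 d sham hearts (SD, n = 3 each), given as a description because it was picked for its likeness to this probe set. The arrays share their groups, so that these correlations describe a common outline over 4 groups.

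Cell markers differed between the same groups. The summed signal of 14 cardiomyocyte markers that passed the filter, of 15 listed, ran between 507314 and 566376 in the 7 d IR hearts, against 677432 to 782877 in 7 d sham hearts, and between 524403 and 694803 in the 2 d IR hearts, against 713358 to 803992 in the 2 d sham hearts. Of these markers 8 fell at 7 d and 1 at 2 d. All 14 had a log2 change below 0 on both days (median -0.40 at 7 d and -0.32 at 2 d), beside 49.2% of all probe sets at 7 d and 49.6% at 2 d. Of all probe sets tested, 12.1% were called in either direction at 7 d and 2.47% at 2 d. The sum of 15 of 19 macrophage and monocyte markers ran between 105122 and 120527 in the 7 d IR hearts, against 40122 to 70921 in 7 d sham hearts, and between 96424 and 149725 in the 2 d IR hearts, against 43096 to 62932 in the 2 d sham hearts. Of the macrophage markers 10 were higher at 7 d and 8 at 2 d. Replicate 69, the 2 d IR array with the highest Plin2 1390383_at signal, also had the highest macrophage sum and the lowest cardiomyocyte sum of its group. Replicates 73 and 76 ran the other way, with 8008.3 and 5994.6 signal units of this probe set and macrophage sums of 96424 and 110711. The 7 d IR macrophage sums lay within the 2 d IR range, while this probe set had 4556.4 to 4892.0 signal units in the 7 d IR hearts. The fibroblast sum, 12 of 12 markers, ran between 257854 and 339042 in the 7 d IR hearts, against 111986 to 199728 in 7 d sham hearts, and between 116947 and 134481 in the 2 d IR hearts, against 94884 to 108836 in the 2 d sham hearts. Of these markers 8 rose at 7 d, 1 rose at 2 d, and 10 were higher in 7 d IR than in 2 d IR hearts. These counts moved with single arrays: at 7 d, without sham replicate 82, they were 1 cardiomyocyte, 0 macrophage and 3 fibroblast markers, without IR replicate 44 they were 3, 4 and 3, and without IR replicate 47 they were 4 of each. At 2 d the macrophage count was 0 without IR replicate 69, sham replicate 71 or sham replicate 72 and 5 without IR replicate 76, the cardiomyocyte count was 0 to 5 and the fibroblast count 0 to 4 over the fits that leave out 1 array. The part of these cell types in the Lpl, Plin2 and list results was not tested, and in whole tissue fewer cells of a type and less RNA per cell cannot be told apart.

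The endothelial sum, 10 of 12 markers, ran between 31341 and 31897 in the 7 d IR hearts, against 27051 to 30836 in 7 d sham hearts, and between 28791 and 29994 in the 2 d IR hearts, against 26024 to 29551 in the 2 d sham hearts. Of 10 adipocyte markers 3 passed the filter, and Plin1, Lep, Pck1 and Thrsp did not. The adipocyte sum ran between 4302 and 6179 in the 7 d IR hearts, against 3461 to 4940 in 7 d sham hearts, and between 2830 and 4304 in the 2 d IR hearts, against 3296 to 3613 in the 2 d sham hearts. The 3 markers did not move together at 7 d: Cfd, the secreted factor adipsin, rose (0.94, SE 0.21, adjusted p = 0.0152, but 0.0597 to 0.0803 without 7 d IR replicate 44 or 47 or 7 d sham replicate 82), whereas Lipe, hormone-sensitive lipase, had -0.31 (adjusted p = 0.392) and Adrb3, an adrenergic receptor, -0.61 (adjusted p = 0.104). As a sign of RNA quality, the 3' probe set of Actb exceeded its 5' probe set on the log2 scale by 0.18 ± 0.06 in the 7 d IR hearts, against 0.58 ± 0.23 in the 7 d sham hearts, and 0.24 ± 0.07 in the 2 d IR hearts, against 0.20 ± 0.10 in the 2 d sham hearts (SD, n = 3 each), and its part in the 7 d differences was not tested. The same measure for Gapdh was 0.32 ± 0.05 in the 7 d IR hearts, against 0.39 ± 0.07 in the 7 d sham hearts, and for Hk1 0.82 ± 0.16 against 0.95 ± 0.24 in these groups. At 2 d Gapdh had 0.32 ± 0.10 in IR, against 0.27 ± 0.06 in sham hearts, and Hk1 1.34 ± 0.60 in IR, against 1.26 ± 0.41 in sham hearts (SD, n = 3 each).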

How the data were processed

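Each of the 12 ventricles was measured on its own array. Every sample carries a rat number of its own, and p-values measure the spread between these samples. For each probe set the authors deposited a linear intensity. The submitters' processing notes name MAS5 as the tool behind it, and which release was run is not given in the sources used here. The algorithm merges matched and mismatched probes into a signal and scales arrays to a shared mean, so that arrays can still differ in how their signals are spread.

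Values were put on the scale log2(signal + 195.45), the added constant being the median over arrays of the 20th percentile. Leaving out 57 controls among 15923 probe sets and any set that exceeded the 40th percentile of its array in fewer than 3 arrays left 10527. In R 4.3.3, limma 3.58.1 (lmFit, contrasts.fit and eBayes with trend) was fitted to all 12 arrays with 4 group means and 5 contrasts: IR minus sham for each day, the day difference of that effect, and 7 d minus 2 d within IR and within sham. All tests were two-sided, adjustment followed Benjamini and Hochberg over all probe sets tested, and an adjusted p under 0.05 was called. A planned test of Angptl4 and Plin2 between the sham groups was left out, because sham values entered their choice. The number of arrays limits the precision. The code was tested on simulated data.

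Symbols came from the platform annotation in GEO (12789 probe sets with 1 symbol, 312 with several, 2822 unnamed here), and RefSeq's gene table for GRCr8 held 12754 of the 12789 under the same gene identifier. In a list, a gene is represented by its brightest probe set. The genes of the set and all lists were chosen with earlier results of these data known. Named were all probe sets of the 8 genes, up to 4 called genes per list and comparison with the largest change, measured relatives of the perilipins, pyruvate dehydrogenase kinases, PPARs and uncoupling proteins, and the 5 genes most correlated with Angptl4 and with Plin2. Alternatives varied the pseudocount, the filter, the normalization, the variance model, the arrays and the control group.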

Additional observations from a re-analysis of the deposited data

Results flagged for a closer look

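Plin2 1382680_at was picked out because all 7 d IR arrays lay below the 7 d sham mean while the 2 d IR arrays lay above the 2 d sham mean. The change at 7 d minus the change at 2 d was -0.95 on the log2 scale. The difference was not tested, since the gene was chosen for it. The other Plin2 probe set had an IR change above 0 on both days (0.38 at 7 d and 1.24 at 2 d).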

How the results depend on the processing

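No paired analysis was possible because the groups share no replicate numbers. Of the values of the 8 genes over all alternatives, 709 kept their direction and their side of the threshold or moved by less than 1 SD, 7 newly passed, 5 moved further and 21 turned round. The number of probe sets called at 7 d was 541 with 2 d IR replicate 69 and 7 d sham replicate 82 both left out, 2505 with the other day's sham hearts, and 175 to 1463 with single arrays left out. Lpl was called throughout. At 2 d the 260 calls became 77 with no filter, 68 with no intensity trend, 75 with the other day's sham hearts, 70 with both of those arrays left out, and 2 to 515 with single arrays left out. The 8 genes then had 1 call (Lpl) under the stricter filter, median centring or array weights, and 0 to 2 with single arrays left out. At 7 d 51.5% of calls were higher, against 37.9% after median centring, and at 2 d 76.2% against 62.5%. For the difference of the effects 0 probe sets were called with no filter, with no trend or with both arrays left out, 3 with array weights, and 0 to 6 with single arrays left out. Between the IR groups 577 were called with array weights, 556 with both arrays left out, and 192 to 439 with single arrays left out. Between the sham groups 1 was called with no filter, 5 with the stricter filter, 2 with no trend, 25 with array weights, 83 with both arrays left out (1 of them Ucp2), and 1 to 76 with single arrays left out. The cause of these shifts was not tested.

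Values that turned round lay mostly near 0. Angptl4 at 7 d had -0.16 with array weights, -0.39 with both arrays left out and -0.39 to 0.46 with single arrays left out. Fabp4 at 2 d had 0.090 after quantile normalization, 0.0096 with array weights, 0.033 with the other day's sham hearts, 0.11 with both arrays left out and -0.11 to 0.11 with single arrays left out. With single arrays left out, Pdk4 at 2 d ran from -0.11 to 0.59 and Ucp2 at 7 d from -0.040 to 0.24. Between the sham groups Fabp4 had 0.013 after quantile normalization, and with single arrays left out Fabp4 ran from -0.21 to 0.12, Plin2 1390383_at from -0.098 to 0.33 and Pdk4 from -0.093 to 0.37. With the other day's sham hearts Ucp2 had -0.48 at 7 d and 0.14 at 2 d, Ucp3 0.24 and -0.33, and Pdp1 0.029 at 2 d.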

Other observations

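Of 20 hypoxia-induced genes, a class to which Angptl4 and Plin2 are often counted, 2 rose and 1 fell at 7 d and 1 rose at 2 d. Of all probe sets tested, 12.1% were called in either direction at 7 d and 2.47% at 2 d. P4ha2, a collagen prolyl hydroxylase (0.71, SE 0.14, adjusted p = 0.00946), and Ndrg1 (0.62, SE 0.18, adjusted p = 0.0408) were higher at 7 d, and Bnip3, a mitochondrial mitophagy receptor, was lower (-0.56, SE 0.13, adjusted p = 0.0173). Without 7 d sham replicate 82 none of the 3 passed. At 2 d Hmox1, which haem also induces, was higher (2.01, SE 0.31, adjusted p = 0.0132). It did not pass without 2 d IR replicate 69, 2 d sham replicate 71 or 2 d sham replicate 72. The median change of the list was -0.16 at 7 d and -0.08 at 2 d.

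Of 13 glucocorticoid-responsive genes, a class that also holds Angptl4 and Pdk4, Klf9 fell at 7 d (-0.52, SE 0.14, adjusted p = 0.0265) and Sgk1, a kinase gene, rose at 2 d (0.95, SE 0.18, adjusted p = 0.0185). No other gene of the list was called on these days, beside 12.1% of all probe sets at 7 d and 2.47% at 2 d. The median change of the list was 0.01 at 7 d and 0.20 at 2 d. Klf9 did not pass without 7 d sham replicate 82. Sgk1 did not pass without 2 d IR replicate 69, 2 d sham replicate 71 or 2 d sham replicate 72, or with the other day's sham hearts.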
